A study of Mus musculus with 27 samples.

Results

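The comparison asks which late programmes of cultured mouse foetal liver cells, those that switch between 24 h and 48 h, fail to switch when Rb1 is absent. The change from 24 h to 48 h in cells with a knockout of Rb1 (labelled Rb1 KO, here Rb1KO) was set against the same change in wild type cells (WT), gene by gene, as a difference of differences. All cells came from livers of mouse embryos at day 14.5 and were kept in a serum-rich medium without further treatment, and RNA was hybridized to expression arrays. WT had 2 arrays at 24 h and 2 at 48 h, and Rb1KO had 4 at 24 h and 2 at 48 h, which makes 10 of the 27 arrays of the series. Every gene is a member: 10916 genes were tested, of 18193 genes that had a named probe set. The dimmest 40%, by mean over all 27 arrays of the series, were left out. A further 5 arrays, of cells with a knockout of p107 (labelled p107 KO, 2 arrays at 24 h and 1 at 48 h) or of both genes (labelled Rb1;p107 DKO, here DKO, 1 array at each time), gave the same comparison in the absence of p107. The sources used here name neither the Rb1 allele nor the cells in which it was deleted. They also do not tell whether replicate arrays stem from different embryos, so the p-values cover only the spread among arrays, which may be technical. That spread is pooled over the groups of all 27 arrays, samples labelled 0 h included.

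RB1 is a pocket protein that binds E2F transcription factors and holds their target genes in check until cyclin-dependent kinases phosphorylate it, after which E2F targets such as cyclin E, the replication licensing factors and the enzymes of deoxynucleotide synthesis are expressed and cells enter S phase. The related pocket proteins p107 (gene Rbl1) and p130 (gene Rbl2) act with E2F and with the MuvB core to repress both these genes and the later genes of G2 and mitosis when cells leave the cycle. The foetal liver at this stage consists mostly of erythroblasts, which divide a few more times, then stop dividing and condense their nucleus, beside hepatoblasts, macrophages, megakaryocytes, endothelial and stromal cells. Mouse embryos without Rb1 are known for anaemia and for red cell precursors that mature poorly. RNA came from the whole culture, so fewer cells of a type and less RNA per cell cannot be told apart.

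Promoters of cell cycle genes carry short words that E2F or the MuvB complexes bind, and 4 such promoters are shown because the E2F-regulated and mitotic genes described below carry these words more often than other genes. The windows run from 250 bases before to 50 bases after the annotated start of the gene, are RefSeq sequences of build GRCm38.p6, and are given 5′ to 3′ on the strand of the gene. Capitals mark the words TTTCCCGC, TTTCGCGC, TTTGCCGC or TTTGGCGC (E2F) in the windows of Zfp367, Rad51c and Clspn and the words TTTGAA or TTCGAA (cell cycle genes homology region, CHR) in that of Racgap1, read on either strand. The genes were chosen after their values were seen. The window of Zfp367, a zinc finger protein, lies at chr13:64153150-64153449 on the minus strand and holds 2 E2F words, which begin at -19 and -5 from the start, and 1 CHR word, which is left in lower case.
Zfp367: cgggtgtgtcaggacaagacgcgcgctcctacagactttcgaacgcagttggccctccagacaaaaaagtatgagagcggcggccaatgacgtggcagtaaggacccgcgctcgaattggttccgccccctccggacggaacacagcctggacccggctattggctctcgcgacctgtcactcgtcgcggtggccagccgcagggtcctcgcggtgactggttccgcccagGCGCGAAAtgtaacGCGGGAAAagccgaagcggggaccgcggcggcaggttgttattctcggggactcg
The window of Rad51c, a protein of DNA repair by homologous recombination, lies at chr11:87404457-87404756 on the minus strand and holds 1 E2F word, from base 12 of the transcript.
Rad51c: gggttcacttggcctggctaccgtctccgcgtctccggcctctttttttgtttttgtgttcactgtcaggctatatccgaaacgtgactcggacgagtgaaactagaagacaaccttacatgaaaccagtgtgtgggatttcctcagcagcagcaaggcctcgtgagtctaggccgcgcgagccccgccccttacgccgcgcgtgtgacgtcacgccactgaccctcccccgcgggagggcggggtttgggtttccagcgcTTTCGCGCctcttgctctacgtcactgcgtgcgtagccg
The window of Clspn, which encodes the replication checkpoint mediator claspin, lies at chr4:126556730-126557029 on the plus strand and holds 1 E2F word, from base 22 of the transcript.
Clspn: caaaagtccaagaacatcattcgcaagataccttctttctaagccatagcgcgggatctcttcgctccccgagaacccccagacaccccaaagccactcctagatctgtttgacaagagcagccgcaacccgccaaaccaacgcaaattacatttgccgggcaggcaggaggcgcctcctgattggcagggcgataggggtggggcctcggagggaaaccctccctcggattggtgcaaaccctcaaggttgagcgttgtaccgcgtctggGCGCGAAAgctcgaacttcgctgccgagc
The window of Racgap1, a subunit of the centralspindlin complex of cytokinesis, lies at chr15:99651607-99651906 on the minus strand and holds 1 CHR word, from base 6 of the transcript.
Racgap1: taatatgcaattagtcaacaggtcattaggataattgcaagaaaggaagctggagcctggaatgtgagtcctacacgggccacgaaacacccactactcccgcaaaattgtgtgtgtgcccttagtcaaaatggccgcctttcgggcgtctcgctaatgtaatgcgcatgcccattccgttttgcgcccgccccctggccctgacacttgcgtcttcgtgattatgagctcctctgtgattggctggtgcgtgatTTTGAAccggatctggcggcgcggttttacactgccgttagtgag
Among windows of E2F-regulated genes 42.3% of 52 held an E2F word, against 4.16% of the 11403 windows of all genes tested and 2.26% of all 32851 windows. Among windows of G2/M and mitosis genes 72.5% of 51 held a CHR word, against 13.9% of the windows of all genes tested. The windows of Slbp, Lrr1 and 1110002L01Rik, the 3 genes called positive in the comparison, held no such E2F word, which says only that these letters are not in these windows. A match is a description of the letters and not evidence of binding.

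The Rb1 signal itself, from the brighter of its probe sets, was 10309 and 8589 on the WT arrays at 24 h and 5746 and 6583 at 48 h. It was 2659, 3363, 4355 and 4433 on the Rb1KO arrays at 24 h and 4207 and 5453 at 48 h, so every Rb1KO array was below every WT array of the same time. Signal that remained on the Rb1KO arrays cannot be assigned to a part of the transcript, because the sources do not state which exons were removed. Between the times Rb1 had a WT change of -0.61 and an Rb1KO change of 0.40 on the log2 scale, neither past the threshold, and a difference of differences of 1.01 ± 0.32 (limma adjusted p = 0.337). Its pocket protein relatives Rbl1 and Rbl2 gave 0.14 ± 0.36 and 0.24 ± 0.45, with adjusted p-values of 0.996 and 0.996. Erythroid cells were plain from Slc4a1, the band 3 anion exchanger of red cells, at signals of 42100 to 92967 over the 10 arrays. Klf1, an erythroid transcription factor, was at 12372 to 38330, and in WT at 30663 to 30721 at 24 h and 12372 to 13514 at 48 h. In Rb1KO it was at 24530 to 38330 at 24 h and also lower at 48 h, at 14155 to 19318. The probe set of the globin gene Hba-a2 was at only 142 to 748. The cultures were mixed, with the neutrophil marker Mpo at 17336 to 43912 and the megakaryocyte and platelet marker Pf4 at 5806.5 to 37035.5. Hepatocyte genes were present too, with Alb (albumin) at 793 to 8331 and Afp (alpha-fetoprotein) at 2856 to 27417. Among these arrays, Rb1KO 24 h replicate 1 had the lowest median correlation with arrays of its time (r = 0.937 across genes), followed by Rb1KO 48 h replicate 2 (0.943), against 0.946 to 0.961 on the other 8. Y-linked RNA was present on Rb1KO 24 h replicate 2 and Rb1KO 48 h replicate 2, with Eif2s3y at 1405 and 1351, and Eif2s3y was at 31.3 or less on the other 8 arrays, all 4 WT arrays included.

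In WT cells 2755 genes (25.2% of those tested) changed from 24 h to 48 h, of which 1440 (13.2%) rose and 1315 (12%) fell. In Rb1KO cells 2289 genes (21%) changed, of which 1463 (13.4%) rose and 826 (7.57%) fell. With array medians made equal, the WT split was 1269 against 1598 and the Rb1KO split 1140 against 1480, and the median Rb1KO change moved from 0.02 to -0.12. The difference of differences, positive where the Rb1KO change lies above the WT change, passed the threshold of an adjusted p of 0.05 for 5 genes (0.0458%), 3 positive (0.0275%) and 2 negative (0.0183%). At an unadjusted p under 0.05 there were 772 genes (7.07%), 493 positive (4.52%) and 279 negative (2.56%). Over all genes the median difference was 0.04 and 54.4% were positive. The median SE was 0.37 on the log2 scale, against 0.28 for the WT change and 0.24 for the Rb1KO change. The count was 0 without Rb1KO 48 h replicate 2 (653 genes at an unadjusted p under 0.05) and 0 without both arrays with Y-linked RNA (560 genes), and it was 15 without Rb1KO 24 h replicate 1, 3 without Rb1KO 24 h replicate 3, 19 without Rb1KO 48 h replicate 1, 3 without WT 24 h replicate 1 and 2 without WT 48 h replicate 2. The difference of differences uses the same arrays as both changes, so the changes are given beside it for reading and are not separate evidence.

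**Figure D1:**
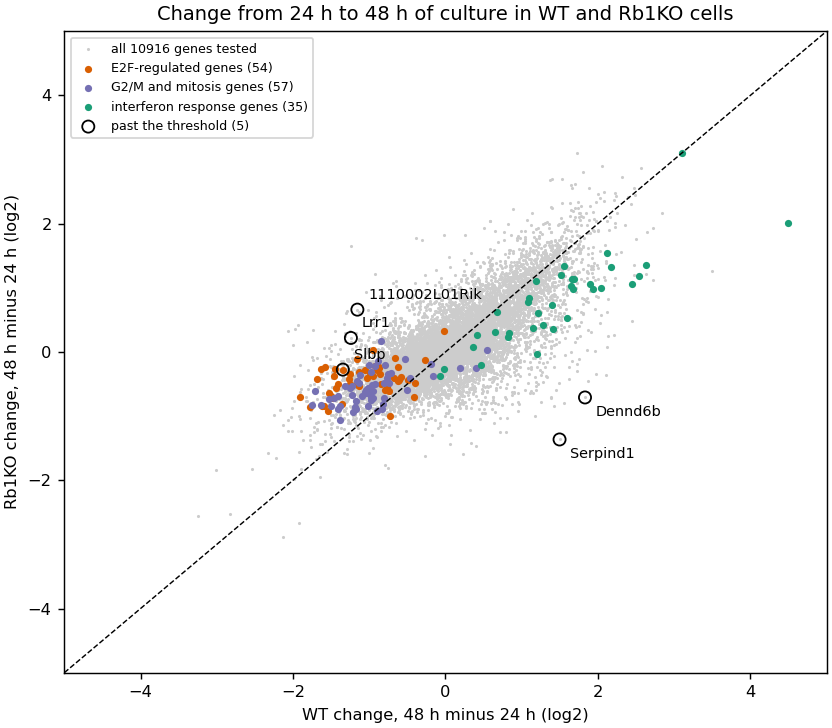
Change from 24 h to 48 h (log2) in WT cells on the horizontal axis and in Rb1KO cells on the vertical axis, 1 point per gene tested (10916); colours mark 3 gene lists and rings the 5 genes past the threshold. The dashed line marks equal change; E2F-regulated genes (median WT change -1.03, median Rb1KO change -0.44) lie mostly above it and interferon response genes all below it.

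The 5 genes past the threshold had opposite or unequal changes in the 2 genotypes. Slbp encodes the stem-loop binding protein, which processes the mRNAs of replication histones in S phase. Its signal was 17335 and 15954 on the WT arrays at 24 h and 7179 and 5927 at 48 h, and 31184, 27203, 32676 and 31484 on the Rb1KO arrays at 24 h and 23271 and 27422 at 48 h. Both WT arrays at 48 h lay far below all other arrays, while the Rb1KO arrays of the 2 times overlapped. Slbp fell in WT (-1.35, limma adjusted p = 4.01e-06), its Rb1KO change was -0.27 (adjusted p = 0.137), and the difference of differences was 1.07 ± 0.20 (SE; adjusted p = 0.0444). Lrr1 encodes a substrate receptor of the CUL2 ubiquitin ligase that unloads the replisome from DNA. Its signal was 2721 and 2489.5 in WT at 24 h and 1261 and 929.8 at 48 h, against 2010.2, 2276, 2739 and 2335 in Rb1KO at 24 h and 2477 and 2970.1 at 48 h. Again the WT arrays at 48 h stood alone at the bottom and the other 3 groups overlapped. Lrr1 fell in WT (-1.24, adjusted p = 6.2e-05) and had an Rb1KO change of 0.22 (adjusted p = 0.361), a difference of 1.46 ± 0.24 (limma adjusted p = 0.0158). All 3 probe sets of Lrr1 were positive (1.46, 1.28 and 0.65), and of those of Slbp 2 were positive (1.07 and 1.11) and a dim one was at -0.98. Averaged over its probe sets, Slbp had a difference of 0.40 (limma adjusted p = 0.878).

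The other genes past the threshold were dim, with every group mean under the median gene, so their folds rest on signals near background and they were outside the rule for naming. The transcript 1110002L01Rik gave 182 and 196 in WT at 24 h and 82.6 and 53.7 at 48 h, and 157, 256, 227 and 207 then 323 and 376 in Rb1KO. The WT arrays at 48 h were the lowest and the Rb1KO arrays at 48 h the highest. It fell in WT (-1.15, adjusted p = 0.00221) and rose in Rb1KO (0.66, adjusted p = 0.036), with a difference of 1.82 ± 0.34 (limma adjusted p = 0.0444). Serpind1, which encodes the thrombin inhibitor heparin cofactor II made by hepatocytes, ran the other way. Its signal was 18.2 and 14.6 in WT at 24 h and 127 and 85.6 at 48 h, against 185, 105, 126 and 115 in Rb1KO at 24 h and 47.6 and 17.9 at 48 h. The WT arrays at 24 h overlapped the Rb1KO arrays at 48 h at the low end, and the remaining groups overlapped at the high end. Over all 27 arrays Serpind1 had a mean log2(signal + 32) of 9.15, above its value on any of these 10. The brightness filter used that mean. Serpind1 rose in WT (1.50, adjusted p = 0.00137) and fell in Rb1KO (-1.36, adjusted p = 0.000914), a difference of -2.86 ± 0.41 (limma adjusted p = 0.00465). Dennd6b, a DENN domain protein, gave 60.3 and 60.9 in WT at 24 h and 256 and 345 at 48 h, against 329.8, 319.8, 234 and 284 in Rb1KO at 24 h and 157 and 172 at 48 h. The WT arrays at 24 h were the lowest and WT at 48 h overlapped Rb1KO at 24 h. Dennd6b rose in WT (1.83, adjusted p = 0.000101) and fell in Rb1KO (-0.71, adjusted p = 0.0438), with a difference of -2.54 ± 0.38 (limma adjusted p = 0.00465), but its 4 probe sets gave -2.54, -1.61, -0.49 and -0.03. Averaged over these, Dennd6b had a difference of -1.17 (limma adjusted p = 0.37), and with a pseudocount of 100 or 1 that of Serpind1 was -1.62, which did not pass, or -4.71, which did.

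Just outside the threshold, at an adjusted p of 0.0552, stood 10 genes, and none of them passed. Of these, 7 were named by rule, and Adamts9, P3h4 and Dnajc9, with differences of -1.97, -2.27 and 0.88, fell outside it. Rad51c, whose promoter is printed above, had signals of 743 and 458 in WT at 24 h and 183 and 92.4 at 48 h, against 2036, 1752, 1583 and 1583 and then 1507 and 1478 in Rb1KO. All 4 groups were separate, WT at 48 h lowest. Rad51c fell in WT (-1.91, limma adjusted p = 3.76e-05), its Rb1KO change was -0.21 (adjusted p = 0.575), and the difference was 1.70 ± 0.35, with a second probe set at 2.56. Zfp367 gave 2279 and 2133 and 652 and 725 in WT at 24 h and 48 h, and 11723, 8378, 9902 and 12505 then 7574 and 10025 in Rb1KO. It fell in WT (-1.64, adjusted p = 1.13e-05) and its difference was 1.37 ± 0.27, at Rb1KO levels that overlapped between the times. A dimmer probe set of Zfp367 gave 0.55. Cenpk, a subunit of the inner kinetochore, was at 5384 and 4769 then 1668 and 1636 in WT and at 8755, 5586, 7131 and 8358 then 7270.3 and 8136 in Rb1KO. Its WT fall (-1.60, adjusted p = 0.000128) stood against an Rb1KO change of 0.07 (adjusted p = 0.874), and the difference was 1.66 ± 0.34. Dimmer probe sets of Cenpk gave 0.33 and 0.73. Mns1, a coiled-coil protein of cilia and sperm, Orc6, a subunit of the origin recognition complex, and Tcf19, a factor expressed at the start of S phase, fell in WT (changes of -1.74, -1.63 and -1.60) and had differences of 1.62 ± 0.32, 1.23 ± 0.25 and 1.18 ± 0.24. In each of these 6 genes the WT arrays at 48 h were the lowest of the 10 and overlapped no other group.

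The negative side near the threshold was led by Smad3, a transducer of TGF-beta signals, also at an adjusted p of 0.0552. Its signal was 394 and 354 in WT at 24 h and 1316 and 1362 at 48 h, and 301, 401, 469 and 386 then 614 and 440.1 in Rb1KO. The WT arrays at 48 h were above every other array, and the other 3 groups overlapped in part. Smad3 rose in WT (1.76, limma adjusted p = 4.36e-06), its Rb1KO change was 0.41 (adjusted p = 0.0951), and the difference was -1.35 ± 0.26, with its other probe sets at -1.96 and -0.23. Among negative genes bright enough for the naming rule, the next by p had adjusted p-values of 0.231 to 0.345 and did not pass. Of these Il1rn, the interleukin 1 receptor antagonist, was at 139.6 and 239 then 736 and 636 in WT and at 139.6, 302, 277 and 285 then 276 and 295 in Rb1KO, a difference of -1.52 ± 0.47. Cish, a feedback inhibitor of erythropoietin signalling through STAT5, had a difference of -0.82 ± 0.27, with a WT change of 0.19 (adjusted p = 0.523) and a fall in Rb1KO of -0.63 (adjusted p = 0.0122). Mbp, Tmem43, Fam210a, Commd7 and Tpra1 had differences of -0.89, -1.01, -0.99, -0.83 and -0.98, and all but Tpra1 rose in WT.

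**Figure D2:**
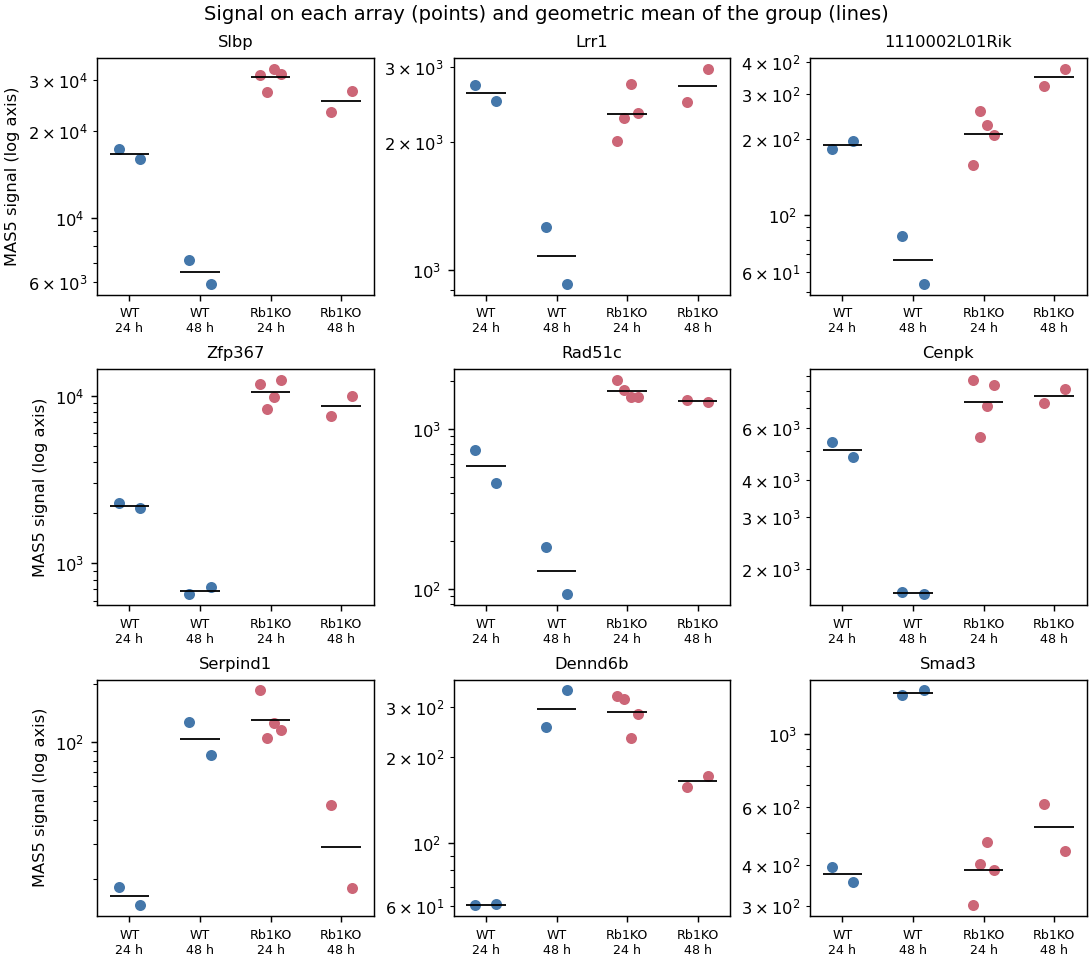
MAS5 signal (log axis, own scale per panel) of 9 genes on each of the 10 arrays (points), grouped by genotype and time, with the geometric mean of each group (lines). For Slbp, Lrr1, 1110002L01Rik, Zfp367, Rad51c and Cenpk the 2 WT arrays at 48 h are the lowest, for Smad3 they are the highest, and for Serpind1 and Dennd6b the WT arrays at 24 h are at or near the bottom.

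E2F-regulated genes of G1/S and replication formed the group with the largest positive median of the 36 lists. Of the 54 tested, 45 fell in WT, against 12% of all genes, with a median change of -1.03. In Rb1KO 21 fell, against 7.57% of all genes, with a median of -0.44. None of the 54 rose in either genotype. The median difference of differences was 0.63, against 0.04 over all genes tested, and 51 of 54 (94.4%) were positive, against 54.4% of all genes. Slbp was the only member past the adjusted threshold (0.0275% of all genes passed as positive), and 29 members had an unadjusted p under 0.05 on the positive side and 0 on the negative, against 4.52% and 2.56% of all genes. The mean log2(signal + 32) of the list was 11.85 and 11.89 on the WT arrays at 24 h and 10.88 and 10.75 at 48 h, and 12.26 to 12.35 on the Rb1KO arrays at 24 h and 11.70 and 12 at 48 h. The Rb1KO arrays at 48 h thus lay near the WT arrays at 24 h. At 24 h already 27 of the 54 had every Rb1KO array above every WT array (12.3% of all genes did), and at 48 h 47 had (23.1% of all genes). Leaving out each array or changing the processing kept the median positive in all 22 alternatives, from 0.50 without Rb1KO 48 h replicate 2 to 0.81 without Rb1KO 48 h replicate 1. The list had 1 call in the main fit, and at most 9, with quantile normalization and without the arrays set apart by correlation. It had no call with no filter, equal medians, a pseudocount of 100 or only the groups compared. The same held without Rb1KO 48 h replicate 2 and without the arrays with Y-linked RNA.

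Members of this list differed widely. The cyclins, licensing factors, nucleotide enzymes and primase described next were chosen by role. They lie outside the naming rule and were picked after their values were seen. None of them passed the adjusted threshold for the difference. Among the cyclins that start S phase, Ccne1 was at 1899 and 2142 then 621 and 587 in WT and at 3748, 3603, 4306 and 3079 then 1986 and 3719 in Rb1KO. Ccne1 fell in WT (-1.69, limma adjusted p = 1.77e-05), its Rb1KO change was -0.42 (adjusted p = 0.12) and the difference was 1.26 ± 0.29 (adjusted p = 0.106). Ccne2, the other E-type cyclin, was measured at 4583 and 4011 then 3325 and 3767 in WT and 15049.8, 9247, 11735 and 15199 then 9828 and 13607 in Rb1KO, so that the genotypes were apart at both times and the difference was 0.16 ± 0.39 (adjusted p = 0.996). Licensing of origins was represented by Cdc6, with a difference of 0.76 ± 0.26, and by the MCM helicase subunits, for which Mcm2 gave 0.92, Mcm3 0.65, Mcm7 0.63, Mcm6 0.41, Mcm5 0.35 and Mcm4 0.17, each with an SE of 0.24 to 0.37. Cdc6 and every one of these subunits except Mcm4 fell in WT, and Cdc6, Mcm2, Mcm5 and Mcm6 fell in Rb1KO as well. Mcm4 turned negative when Rb1KO 24 h replicate 1 or Rb1KO 48 h replicate 2 was left out (-0.03 and -0.22), and Ccne2 without the latter (-0.08).

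For deoxynucleotide synthesis, which supplies the replication fork, the differences varied with the enzyme and with the probe set. Tyms, thymidylate synthase, was at 389 and 348 then 137 and 74.0 in WT and at 751, 875, 661 and 609 then 414 and 879.8 in Rb1KO, a difference of 1.35 ± 0.35 (limma adjusted p = 0.195). The Rb1KO arrays at 48 h were far apart from each other. Dimmer probe sets of Tyms gave 1.72, -0.11 and -0.47. Rrm2, the regulated subunit of ribonucleotide reductase, fell in both genotypes (-1.44 in WT, -0.56 in Rb1KO, limma adjusted p = 0.000144 and 0.0492). Its difference was 0.88 ± 0.31. For Rrm1, the large subunit, the difference was 0.19 ± 0.24, but a probe set about as bright gave 0.74 ± 0.22 and a dim one -0.07. Prim1, a primase subunit, was at 6445 and 7063 then 2746 and 2905 in WT and at 11122, 10532, 10572 and 11590.0 then 7681 and 9629 in Rb1KO, with little spread in each group and a difference of 0.90 ± 0.21 (adjusted p = 0.105). Clspn was at 3988 and 3365 then 1816 and 1452 in WT and at 5385, 6158, 7254 and 7133 then 5102 and 7011 in Rb1KO. It fell in WT (-1.16, adjusted p = 9.57e-05), its Rb1KO change was -0.11 (adjusted p = 0.685), and the difference was 1.05 ± 0.24 (limma adjusted p = 0.0942).

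**Figure D3:**
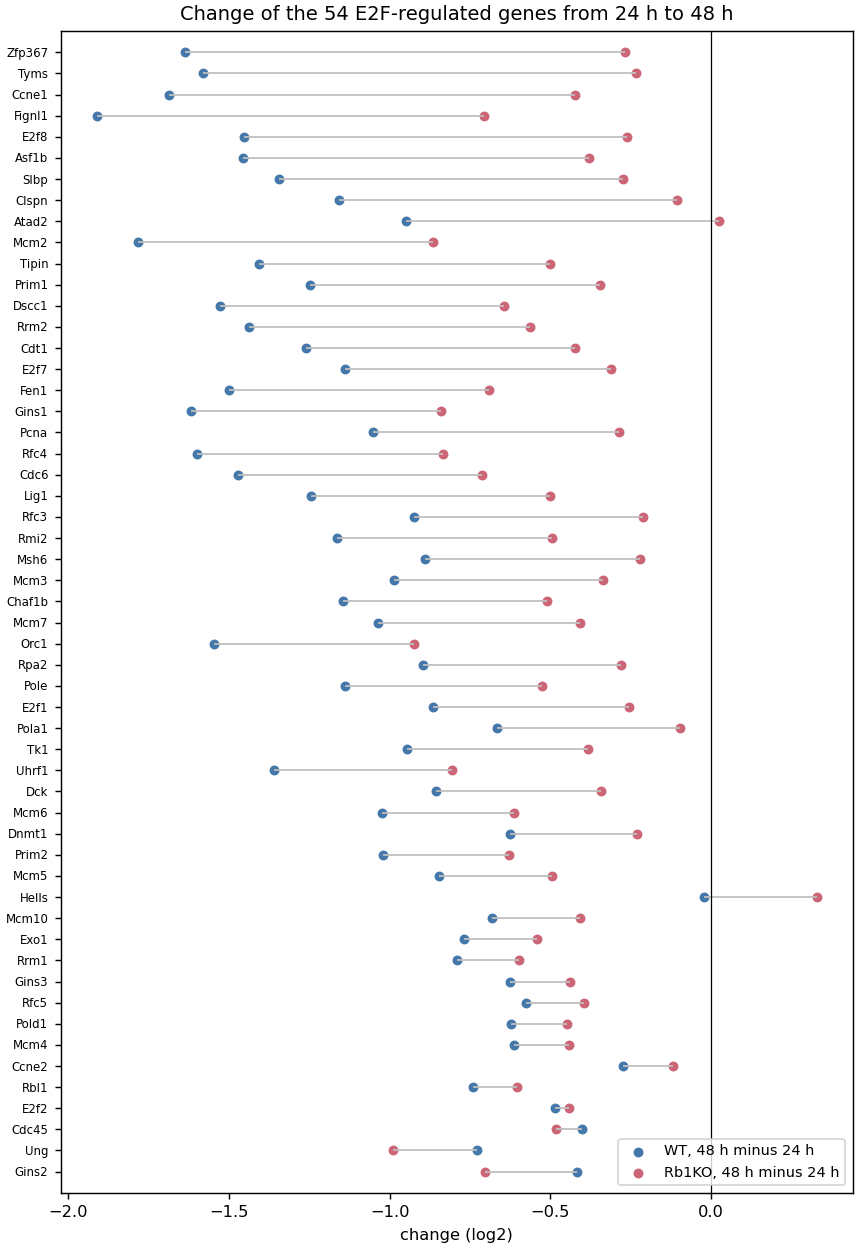
Change from 24 h to 48 h (log2, horizontal axis) of the 54 tested E2F-regulated genes in WT (blue) and Rb1KO (red), joined by a grey line whose length is the difference of differences, ordered by it. The red point lies to the right of the blue one for 51 genes, and the 3 exceptions at the bottom are Cdc45, Ung and Gins2.

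Among the E2F factors themselves, the atypical repressors E2f7 and E2f8, which are E2F targets as well, stood with the replication genes. E2f8 was at 6535 and 5122 then 2339 and 1875 in WT and at 13007, 8482, 10859 and 12238 then 8705 and 9693 in Rb1KO, with a WT fall of -1.45 (limma adjusted p = 4.18e-05), an Rb1KO change of -0.26 (adjusted p = 0.331) and a difference of 1.19 ± 0.27 (adjusted p = 0.104). E2f7 gave 0.83 ± 0.26 (adjusted p = 0.322) and the activator E2f1, named after its values were seen, 0.61 ± 0.40 (adjusted p = 0.868). Over the 19 pocket protein, E2F and DP genes the median was 0.25 and 14 were positive. Among the 19, 6 fell in WT and none in Rb1KO, against 12% and 7.57% of all genes. Of the CDK inhibitors, which act upstream of RB1 by holding its kinases, 6 were tested and their differences ran in both directions around a median of -0.07, which turned positive in 3 of 22 alternatives. Cdkn1a (p21), which is also a p53 target, was at 11914 and 13813 then 25666 and 28499 in WT and at 31928, 18125, 19289.8 and 21161 then 23127 and 26229 in Rb1KO. It rose in WT (1.07, adjusted p = 0.00855), and in Rb1KO it was already high at 24 h and had a change of 0.16 (adjusted p = 0.706), a difference of -0.91 ± 0.38 (adjusted p = 0.567). Cdkn2c (p18) fell in WT (-0.95, adjusted p = 0.00115), with an Rb1KO change of -0.21 and a difference of 0.73 ± 0.25 (adjusted p = 0.411). Cdkn1c (p57) had -0.83 ± 0.55 at signals of 19.3 to 169.

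Genes of G2 and mitosis followed with a smaller difference. Of 57 tested, 44 fell in WT (median -0.98) and 31 in Rb1KO (median -0.59), against 12% and 7.57% of all genes. None of the 57 rose in either. The median difference was 0.41, with 49 positive, 13 at an unadjusted p under 0.05 on the positive side (4.52% of all genes), 0 on the negative (2.56%) and none past the adjusted threshold. It stayed positive in all 22 alternatives, from 0.29 without the arrays with Y-linked RNA to 0.53 without WT 24 h replicate 2. On the arrays the list mean was 12.20 and 12.04 then 11.19 and 11.14 in WT and 12.36 to 12.57 then 11.82 and 11.98 in Rb1KO, so here the Rb1KO arrays at 48 h lay under the WT arrays at 24 h. Tpx2, which targets Aurora A to the spindle, was at 5996 and 5492 then 2466 and 2639 in WT and at 7972, 7961, 8759 and 9513 then 6444 and 6019 in Rb1KO. It fell in both (-1.16 and -0.45, limma adjusted p = 8.68e-06 and 0.0105), with a difference of 0.71 ± 0.19 (adjusted p = 0.203). A dimmer probe set of Tpx2 gave 0.16, and dim ones near background gave -0.86 and 1.04. Cdc25c, a phosphatase that activates CDK1, fell from 1601 and 1558 to 503 and 397 in WT and from 1445, 1386, 1932 and 1523 to 839.9 and 889 in Rb1KO, a difference of 0.92 ± 0.22 (limma adjusted p = 0.134), and a dimmer probe set gave 0.14. Racgap1, with the printed CHR word, fell from 2981 and 2084 to 942 and 1019 in WT and from 5107, 4711, 5067 and 4851 to 3422 and 3415 in Rb1KO, a difference of 0.80 ± 0.25 (limma adjusted p = 0.345). A probe set of Racgap1 nearly as bright gave 0.35, and a dim one 0.92.

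DNA repair genes and the genes that handle new histones lay on the same side. Of 27 repair genes, 17 fell in WT and 6 in Rb1KO, against 12% and 7.57% of all genes. The median difference was 0.42 (0.33 to 0.63 over the alternatives). It was positive for 23, with 7 of them at an unadjusted p under 0.05 (4.52% of all genes) and none past the adjusted threshold. Brca1, a tumour suppressor of homologous recombination, was at 3541 and 2777 then 1407 and 1058 in WT and at 3889, 4347, 5538 and 5982 then 4159.9 and 4674 in Rb1KO. It fell in WT (-1.34, limma adjusted p = 7.19e-05), its Rb1KO change was -0.14 (adjusted p = 0.624), and the difference was 1.20 ± 0.27 (adjusted p = 0.0899). Rad54b, a DNA translocase of the same pathway, gave 1.16 ± 0.38 at signals of 58.0 to 343. Of 19 histone genes and chaperones, 10 fell and 1 rose in WT, where 12% and 13.2% of all genes did. In Rb1KO 1 fell and 1 rose, where 7.57% and 13.4% of all genes did. The median difference of the 19 was 0.37, with 17 positive. Asf1b, a histone chaperone of replication, was at 9582 and 8026 then 3066 and 3291 in WT and at 24680.3, 13659, 16289.8 and 15783 then 12351 and 14043 in Rb1KO, a difference of 1.08 ± 0.26 (limma adjusted p = 0.134). Hat1, the acetyltransferase of new histone H4, fell in both genotypes (-1.26 and -0.61) with a difference of 0.65 ± 0.19 (adjusted p = 0.279). Slbp, Asf1b and several E2F genes stand in more than 1 of these lists, so the lists are not independent of each other.

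Over all genes tested, members of the lists included, 446 had an E2F word in a promoter window and 8468 had a window without one. The first had a median difference of 0.17, with 64.1% positive and 46 (10.3%) positive at an unadjusted p under 0.05. The others had a median of 0.04, with 54.1% positive and 351 (4.15%) positive at that p. In WT 23.5% of genes with the word fell, against 11.7% of those without, and in Rb1KO the shares were 7.62% and 7.59%. Genes with a CHR word (1458) had a median difference of 0.06 and genes with the GATA word AGATAA (695) of 0.03, near the 0.04 of the genes without them. Among genes in none of the 36 lists, 388 with the E2F word had a median difference of 0.13, with 61.9% positive and 29 (7.47%) positive at an unadjusted p under 0.05, and 7809 without it had 0.04, 54.4% and 308 (3.94%). No test of this difference was made.

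**Figure D4:**
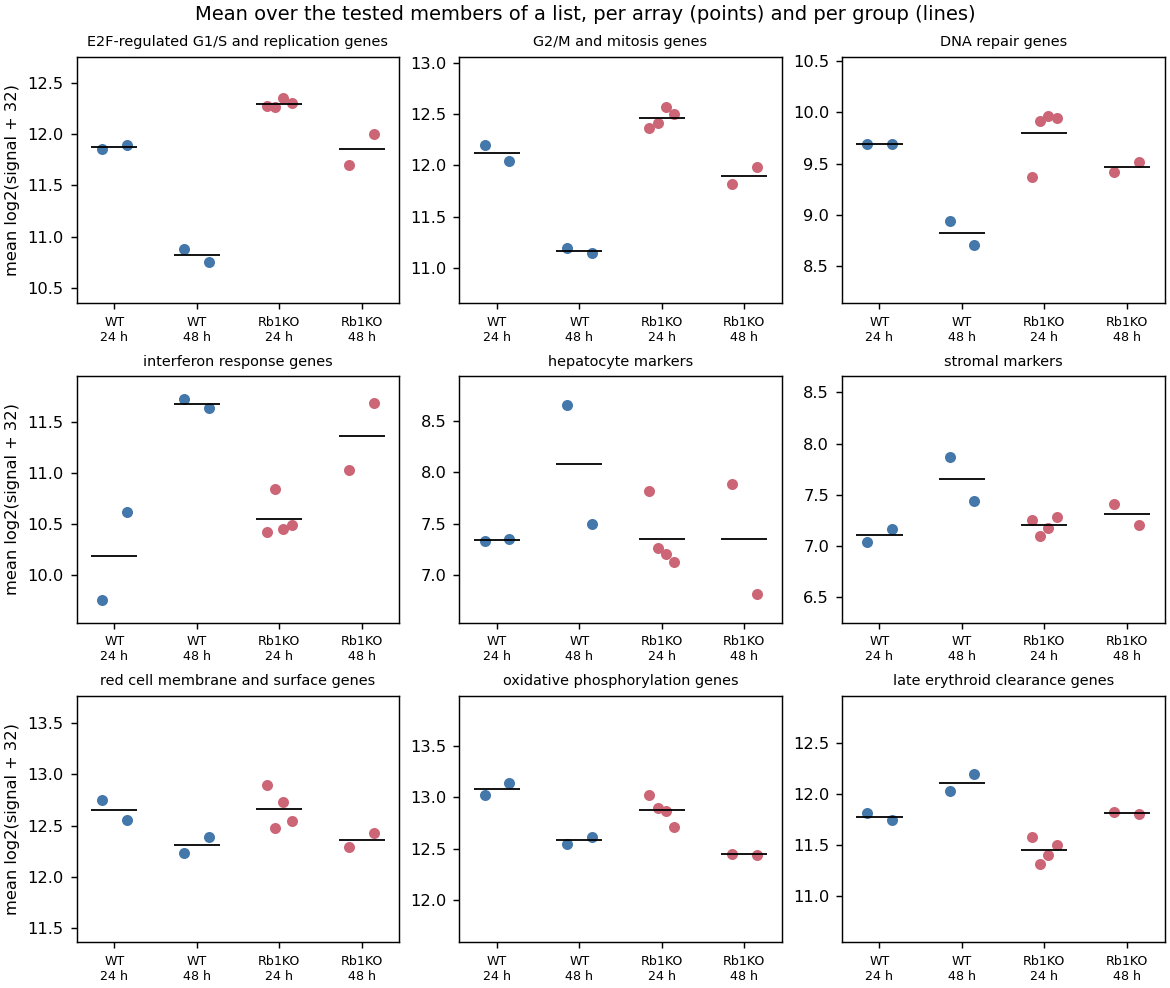
Mean log2(signal + 32) over the tested members of 9 gene lists on each of the 10 arrays (points) and the mean of each group (lines); all panels span the same number of log2 units. In the E2F, G2/M and DNA repair panels the WT arrays at 48 h are the lowest, the interferon and hepatocyte panels show arrays of a group far apart, in the stromal panel both WT arrays at 48 h are the highest, and the red cell membrane, oxidative phosphorylation and clearance panels show similar steps in both genotypes.

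Programmes that rose in WT and had negative differences were the interferon response, p53 targets and some chemokines. Of 35 interferon response genes, 26 rose in WT (median 1.41) and 15 in Rb1KO (median 0.84), against 13.2% and 13.4% of all genes. None of the 35 fell in either, where 12% and 7.57% of all genes fell. The median difference was -0.61, with 0 of 35 positive, 7 at an unadjusted p under 0.05 on the negative side (2.56% of all genes) and none past the adjusted threshold. The list mean was 9.76 and 10.62 in WT at 24 h, 11.72 and 11.63 in WT at 48 h, 10.42 to 10.84 in Rb1KO at 24 h and 11.03 and 11.68 in Rb1KO at 48 h. WT 24 h replicate 1 was the lowest of the 10 arrays, and the Rb1KO arrays at 48 h were far apart. Without WT 24 h replicate 1 the median difference was -0.18, and without WT 24 h replicate 2 it was -1.08. Mx2, an antiviral GTPase, was at 17.8 and 81.7 then 2199 and 1250.4 in WT and at 24.8, 213, 148 and 57.6 then 163 and 1214 in Rb1KO, a difference of -2.48 ± 0.99 (limma adjusted p = 0.541). Oas2, a sensor of double-stranded RNA, and Gbp2, a guanylate binding protein, rose in both genotypes and had differences of -1.35 ± 0.53 and -1.05 ± 0.44 (limma adjusted p = 0.521 and 0.568). Macrophage markers rose with this programme in both genotypes (18 of 30 in WT and 22 in Rb1KO, against 13.2% and 13.4% of all genes). Their list means were 9.91 and 9.63 then 11.27 and 10.49 in WT and 9.06 to 9.94 then 11.17 and 10.26 in Rb1KO. Their median difference was 0.13, and their part in the interferon result was not tested.

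Of 27 p53 targets, 11 rose in WT (median 0.67) and 4 in Rb1KO (median 0.23), and 1 fell in each, where 13.2% and 13.4% of all genes rose. The median difference was -0.29, 8 were positive, 4 were negative and 1 positive at an unadjusted p under 0.05 (2.56% and 4.52% of all genes), and the alternatives ran from -0.36 with equal array medians to -0.08 without Rb1KO 48 h replicate 2. Plk2, a polo-like kinase induced by p53, was at 141 and 230.0 then 653 and 461 in WT and at 338, 220.2, 192 and 261 then 296 and 249 in Rb1KO. It rose in WT (1.45, limma adjusted p = 0.00508), its Rb1KO change was 0.12 (adjusted p = 0.833), and the difference was -1.33 ± 0.47 (adjusted p = 0.447). Eda2r, a p53-induced death receptor, had a difference of -1.28 ± 0.42 (limma adjusted p = 0.345). Of 19 chemokine and cytokine genes, 12 rose in WT and 6 in Rb1KO, against 13.2% and 13.4% of all genes. Their median difference was -0.36, and it was -0.05 without WT 48 h replicate 1 and -0.73 without WT 48 h replicate 2. Cxcl10, an interferon-induced chemokine, gave -0.77 ± 0.40. Ackr3, a scavenging chemokine receptor, went the other way: it rose from 3957 and 3942 to 11331 and 11512 in WT and from 1102, 332, 674 and 672 to 4611 and 4060.3 in Rb1KO, where it stayed under the WT level of the same time, and its difference was 1.17 ± 0.49 (limma adjusted p = 0.568).

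Hepatocyte and stromal markers had negative medians, and for hepatocyte markers the arrays of a group lay far apart. Of 37 hepatocyte markers, 8 rose in WT (13.2% of all genes did), and 3 rose and 1 fell in Rb1KO (13.4% and 7.57% of all genes). The median difference was -0.65, 7 were positive, and 7 negative and 1 positive reached an unadjusted p under 0.05 (2.56% and 4.52% of all genes). The list mean was 7.33 and 7.35 in WT at 24 h, 8.66 and 7.50 in WT at 48 h, 7.13 to 7.82 in Rb1KO at 24 h and 7.89 and 6.81 in Rb1KO at 48 h. Over all genes tested the mean on these arrays was 9.38 to 9.53, so the hepatocyte list was dim on average. Replicate 1 was the higher at 48 h in both genotypes, and the median difference was -0.25 without WT 48 h replicate 1 and -1.18 without WT 48 h replicate 2. Serpind1, past the threshold above, is a hepatocyte product, and its lowest Rb1KO array, replicate 2 at 48 h with 17.9, was also the lowest of the 10 for the hepatocyte list (6.81). Its lowest WT arrays, at 24 h with 18.2 and 14.6, were at 7.33 and 7.35 for that list, and the part of hepatocyte content in the Serpind1 result was not tested. Igf2, a foetal growth factor, was at 245 and 184 then 791 and 345 in WT and at 356, 364, 239.6 and 236 then 267 and 123 in Rb1KO, a difference of -1.78 ± 0.50 (limma adjusted p = 0.255). Itih2, a plasma protein, and Hnf4a, a hepatocyte transcription factor, gave -1.96 ± 0.53 at signals of 12.5 to 272 and -2.05 ± 0.62 at signals of 23.7 to 262.

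Of 23 stromal markers, 8 rose and 1 fell in WT (13.2% and 12% of all genes did) and 3 rose in Rb1KO (13.4% of all genes). The median difference was -0.55, and it was -0.07 when the dimmest 60% of genes were left out. The collagen genes Col14a1, Col6a3 and Col4a1 had differences of -1.45 ± 0.37, -1.40 ± 0.44 and -1.35 ± 0.43 (limma adjusted p = 0.184, 0.328 and 0.345). Col4a1, of basement membranes, was at 98.6 and 111 then 419.8 and 221 in WT and at 182, 113, 217 and 141 then 198 and 119 in Rb1KO, higher on both WT arrays at 48 h than on any other array. The stromal gene Col1a1, named as a defining marker, was near background, at 3.2 to 131. Endothelial markers (18 tested, 6 of them positive) had a median difference of -0.27, which was 0.02 without the arrays with Y-linked RNA. Robo4 and Egfl7, both of endothelium, gave -1.08 ± 0.51 and -0.71 ± 0.40. Other probe sets of Egfl7 gave -1.30, -0.13 and -0.09. Cdh5, also of endothelium and dim, was at 18.7 to 100.3 then 9.6 to 15.7 in WT. In Rb1KO it was at 42.4 to 92.4 then 29.3 to 53.1.

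Red cell programmes had median differences near the 0.04 of all genes. Of 29 red cell membrane and surface genes, 11 fell and 1 rose in WT (median -0.37), where 12% and 13.2% of all genes did. In Rb1KO 10 fell and 3 rose (median -0.45), where 7.57% and 13.4% of all genes did. The median difference of the 29 was 0.00. Median differences were 0.09 over 21 heme synthesis genes, 0.07 over 17 iron genes, -0.09 over 37 erythroid transcription regulators, -0.02 over 40 genes of late erythroid clearance and -0.02 over 29 genes of erythropoietin and KIT signalling. Over 5 globin genes the median was -0.03, with a range of -0.49 to 0.41 over the alternatives. Of the clearance genes 12 rose in WT and 11 in Rb1KO, where 13.2% and 13.4% of all genes rose, and in both the median change was 0.39. At 48 h 24 of the 40 had every Rb1KO array below every WT array (28.9% of all genes did). Single genes departed from this, none past the threshold. Icam4, an erythroblast adhesion molecule of the macrophage island, fell from 9720.0 and 7461 to 1332 and 2622 in WT and from 20409.7, 14561, 15238 and 14083 to 8343 and 8519 in Rb1KO, a difference of 1.26 ± 0.34 (limma adjusted p = 0.233). Cpox, an enzyme of heme synthesis, fell in both genotypes (-2.25 and -0.99) with a difference of 1.26 ± 0.53, and its Rb1KO arrays at 48 h were at 2467 and 7527. Dimmer probe sets of Cpox gave 0.61 and 0.04. Tal1, an erythroid transcription factor, fell in WT (-1.02, limma adjusted p = 0.000556) with a difference of 0.68 ± 0.25. Tcp11l2, an abundant late red cell transcript, rose from 19967 and 20449 to 28159.5 and 31772 in WT and from 6579, 4388, 5494 and 6592 to 15481 and 12701 in Rb1KO, a difference of 0.73 ± 0.25 (limma adjusted p = 0.403). In the signalling list Pim3, a survival kinase, gave 1.47 ± 0.48 and Fst, an activin antagonist at signals of 1.7 to 176, gave -1.89 ± 0.63. Dimmer probe sets of Pim3 gave 0.52 and 0.47, and another one of Fst had the opposite sign, at 0.83.

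Markers of other blood cells rose in both genotypes, and part of the mitochondrial genes fell. Of 48 oxidative phosphorylation genes, 18 fell in WT and 17 in Rb1KO, with medians of -0.47 and -0.45 and a difference of 0.06, and no member reached an unadjusted p under 0.05. Of 43 genes of mitochondrial biogenesis and ribosomes, 8 fell in WT and 9 in Rb1KO, with a median difference of 0.05. In each genotype most members of both lists did not pass, and of all genes 12% fell in WT and 7.57% in Rb1KO. Megakaryocyte and platelet markers rose in both (22 of 24 in each, against 13.2% and 13.4% of all genes), with medians of 1.65 and 1.56 and a difference of -0.05. Neutrophil markers rose as well (15 of 18 in WT and 16 in Rb1KO), with a median difference of 0.32 that was -0.13 with the replicate block. Their receptor gene Csf3r gave 0.72 ± 0.40. The part of these cell types in the E2F result was not tested.

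In the absence of p107 the same comparison could be made only on 5 arrays, and by limma no gene passed (0%), with 635 genes (5.82%) at an unadjusted p under 0.05 and a median SE of 0.52. The only DKO array at 24 h, which enters every difference given here, had a low correlation to its peers, as had p107KO 24 h replicate 1. The E2F list had a positive median on these arrays, 0.36, with 48 of 54 positive, against 51.8% of all genes. Its mean was 11.79 and 11.84 on the p107KO arrays at 24 h and 10.95 at 48 h, and 12.24 on the DKO array at 24 h and 11.90 at 48 h. The G2/M list gave 0.43 with 48 of 57 positive, and DNA repair genes gave 0.23 with 23 of 27. Slbp was at 16447 and 17716 then 7946 in p107KO and at 25092 then 25938 in DKO, a difference of 1.15 ± 0.28 (limma adjusted p = 0.391). Rad51c was at 543 and 648 then 164 in p107KO and at 918 then 1715 in DKO, a difference of 2.55 ± 0.50 (limma adjusted p = 0.136). For both genes the p107KO array at 48 h was the lowest of the 5. Zfp367, Lrr1 and 1110002L01Rik gave 1.68 ± 0.38, 0.86 ± 0.34 and 1.20 ± 0.48, Serpind1 -1.74 ± 0.58 and Smad3 -0.65 ± 0.37, all of the same sign as with p107 present, whereas Dennd6b gave 0.25 ± 0.53. Interferon genes had a median of -0.37 with 7 of 35 positive, hepatocyte markers -1.31, and stromal markers 0.06. A test of whether the difference of differences itself depends on p107 called no gene by limma, with 372 (3.41%) at an unadjusted p under 0.05, and single arrays carry most of these values.

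**Figure D5:**
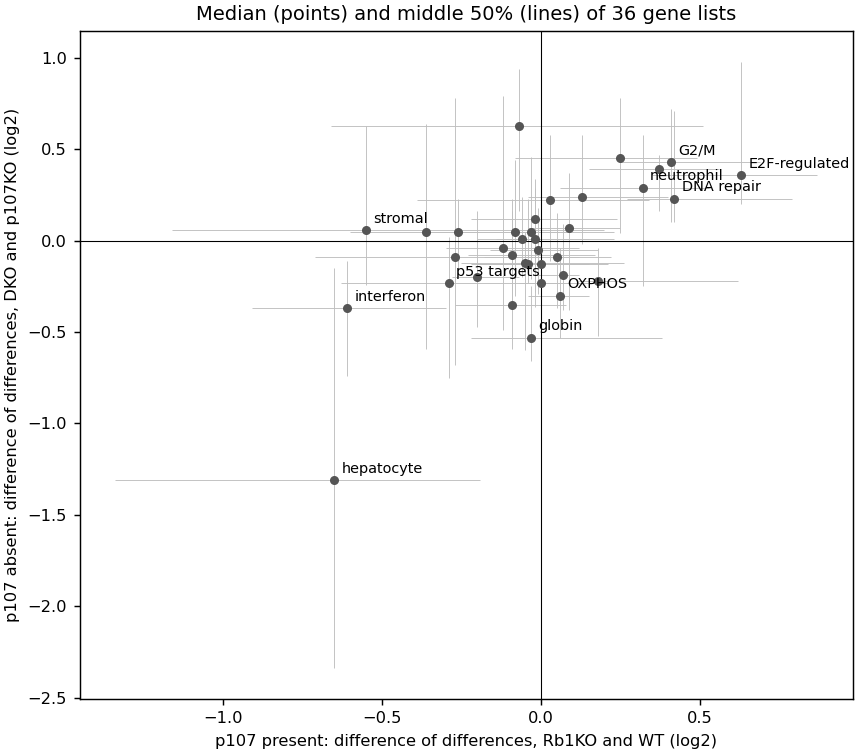
Median difference of differences (points) and middle 50% of genes (lines) of the 36 gene lists, with p107 present (Rb1KO and WT, horizontal axis, 10 arrays) and absent (DKO and p107KO, vertical axis, 5 arrays), both log2. E2F-regulated genes lie at 0.63 and 0.36, interferon response genes at -0.61 and -0.37 and stromal markers at -0.55 and 0.06.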

How the data were processed

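RNA of 27 mouse foetal liver samples was measured on Affymetrix Mouse Genome 430 2.0 arrays. They include samples labelled 0 h beside those cultured for 24 h or 48 h. The authors deposited MAS5 intensities, which are linear and come from GCOS 1.4 according to the submitters' processing notes. Their trimmed mean was 491.7 to 497.5 on every array and their median 81.0 to 119.3, so total brightness was equal and the distribution was not. Precision is limited by the number of arrays, since array data have no read depth.

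Of 45037 probe sets, 34945 carried 1 gene symbol, 932 several and 9160 none in the platform annotation (34741 matched the GRCm38.p6 gene table by Entrez identifier). Each gene was represented by its probe set of highest mean. Other probe sets are given for some genes only, and those not given can differ in size or sign. The lowest 40% of genes by mean over all 27 arrays were left out, and log2(signal + 32) was analysed, which understates folds of dim genes. The fit used limma 3.58.1 under R 4.3.3, a mean for each of the 12 groups, all 27 arrays and a variance trend (15 residual degrees of freedom, prior 7.17). Single-array groups thus borrow the spread of the others. P-values are two-sided and adjusted by Benjamini-Hochberg over the 10916 genes. The scripts were tested on simulated data.

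Named genes are Rb1, Rbl1 and Rbl2; up to 15 per direction past the threshold with a group mean above the median gene, or else the 8 with the smallest p; and, for every list, its 3 members with the smallest adjusted p. Promoters were to be printed for genes called positive with an E2F word, of which there were none. Exceptions are named as such. Members and lists were chosen with earlier results of these data known. Alternatives tried a pseudocount of 1 or 100, a 60% filter or none, quantile normalization, equal medians, means over probe sets, array weights, only the groups compared, a replicate block and leaving out arrays. Hspa1a and Hspa1b share probes, so the value of either is uncertain. Python 3.11.15 and matplotlib 3.10.9 made the figures.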

Additional observations from a re-analysis of the deposited data

Results flagged for a closer look

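The difference of differences passed the threshold for 5 genes by limma: Serpind1 (-2.86), Dennd6b (-2.54), Lrr1 (1.46), Slbp (1.07) and 1110002L01Rik (1.82), all log2. None of the 5 passed when only the 4 groups compared were fitted, when Rb1KO 48 h replicate 2 was left out or when the arrays that carry Y-linked RNA were. The 4 Rb1KO arrays at 24 h, the only group here large enough for a check of single arrays, were examined for 113 quantities, and 6 had 1 array far from the other 3, where chance gives about 1 in 20. Replicate 1 was the lowest for Il1rn (signal 139.6) and for the mean of DNA repair genes (9.37, log2) and the highest for megakaryocyte and platelet markers (9.49). Replicate 4 was the highest for Hnf4a (signal 261.5), replicate 3 the lowest for immediate early genes (mean 9.41), and replicate 2 the highest for interferon response genes (mean 10.84).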

How the results depend on the processing

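The 5 genes past the threshold for the Rb1 dependence of the 24-48 h change became 11 with a 60% filter, 3 with no filter, 14 with array weights, 20 and 2 with pseudocounts of 1 and 100, 28 with quantile normalization, 43 without the arrays apart and 0 with only the 4 groups or without the arrays with Y-linked signal (530 and 560 at an unadjusted p under 0.05). The arrays apart are those with a low correlation to their peers, at 24 h the first replicate of DKO, Rb1KO and p107KO, at 0 h Rb1KO replicate 5. Leaving out single arrays gave 0 to 19. All 5 genes were among those called with array weights, with a pseudocount of 1, with quantile normalization and without the arrays apart, but 4 with equal medians, 3 with a 60% filter, which leaves the other 2 untested, 3 with no filter, 2 with means over probe sets, where Slbp was at 0.40 and Dennd6b was at -1.17, 2 with a pseudocount of 100 and 1 without WT 48 h replicate 2. Slbp lost its call in 13 of 22 alternatives, 1110002L01Rik in 11 of 21, Lrr1 in 7 of 22, Dennd6b in 6 of 21 and Serpind1 in 5 of 22. The labels do not say that replicate numbers pair the arrays, and same-numbered arrays deviated together only weakly (correlations of -0.043 to 0.217). With the replicate block the count was 0 (758 at an unadjusted p under 0.05), and the Rb1KO change gave 877 genes in place of 2289. The WT change gave 1400 to 1997 genes of 2755 when WT arrays were left out in turn. The Rb1KO change gave 745 to 2622 when Rb1KO arrays were left out and 1379 without arrays with Y-linked signal. Without p107 the count of 0 became 4 with means over probe sets, 2 with only these groups, 1 with a pseudocount of 1, 2 with quantile normalization and 0 to 1 with p107KO 24 h arrays left out. That comparison could not be fitted without the arrays apart or the Y-linked arrays, since DKO at 24 h has 1 array, or with the block. Of 77 genes named, 72 kept the sign of their difference in every alternative in which they were tested, 21 or 22 for each gene. The exceptions were Rb1 (-0.08) and Mycn (-0.26) with means over probe sets; Rbl1 without Rb1KO 48 h replicate 2 (-0.01), without WT 24 h replicate 1 (-0.02) and without Y-linked arrays (-0.09), its highest value being 0.29 without WT 24 h replicate 2; Ccne2 without Rb1KO 48 h replicate 2 (-0.08) and without Y-linked arrays (-0.22), against up to 0.39 without Rb1KO 48 h replicate 1; and Mcm4 without Rb1KO 24 h replicate 1 (-0.03), without Rb1KO 48 h replicate 2 (-0.22), without Y-linked arrays (-0.13) and without the arrays apart (-0.03), against up to 0.57 without Rb1KO 48 h replicate 1. The cause of these moves was not tested.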

Other observations

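Growth and stress programmes had median differences of -0.03 over 24 MYC network genes, -0.01 over 39 ribosome biogenesis genes, -0.06 over 23 glycolysis genes, -0.04 over 20 cholesterol synthesis genes, 0.00 over 15 heat shock chaperones, 0.03 over 24 immediate early genes and -0.26 over 32 integrated stress response genes, against 0.04 over all genes tested. None of their members passed the threshold. Mycn, a MYC family factor, rose from 270.2 and 176 to 651 and 581 in WT and from 29.6, 89.5, 31.0 and 176 to 856 and 429 in Rb1KO, a difference of 1.32 ± 0.61 (limma adjusted p = 0.666). Dimmer probe sets of Mycn had the opposite sign, at -0.39 and -1.7. Mxd3, an antagonist of MYC expressed in S phase, fell in WT (-1.83, adjusted p = 0.000276) and gave 1.12 ± 0.42. Mthfd2, a mitochondrial folate enzyme, fell from 12276 and 10397 to 4439 and 4371 in WT, was at 15315, 12922, 15414 and 14501 then 10473 and 11044 in Rb1KO, and gave 0.92 ± 0.31 (limma adjusted p = 0.37). The inducible chaperone Hspa1b rose in WT from 605 and 1000.1 to 1888 and 2126, but on all Rb1KO arrays it was far higher, at 16528, 7799, 13287 and 15472 at 24 h and 13833 and 16986 at 48 h, and its difference was -1.06 ± 0.46 (limma adjusted p = 0.592). The small heat shock protein Hspb1 rose in WT (1.77, adjusted p = 0.0035), with an Rb1KO change of 0.26 and a difference of -1.51 ± 0.55. Axl, a receptor for apoptotic cells on macrophages, gave -0.77 ± 0.46.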
